A study of Mus musculus with 27 samples.

Results

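The 39 genes described here are effectors of the type I interferon response, the genes that cells switch on after interferon has bound its receptor. They were picked by symbol from the gene rows of the expression matrices, by a rule that holds no measured value but with earlier results of these data known, and all 39 were present among the 31053 genes. The study isolated nuclei from frozen hippocampi of mice that express human tau with the P301S mutation under the mouse Prnp promoter (P301S), crossed with mice lacking Cgas, the gene of the cytosolic DNA sensor that makes the STING activator cGAMP. Single-nucleus RNA sequencing covered 27 libraries, 1 per mouse, in 6 genotype groups: Cgas+/+ (n = 5, 3 males and 2 females), Cgas+/- (n = 2, males), Cgas-/- (n = 2, males), and P301S Cgas+/+, P301S Cgas+/- and P301S Cgas-/- (n = 6 each, 3 males and 3 females). The Cgas-/- allele is constitutive and not restricted to any cell type, the Prnp promoter is active in neurons and in other cells, and the mice were aged 8 to 9 months by one passage of the study's text and 9 to 10 months by another.

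Interferons alpha and beta bind the receptor pair Ifnar1 and Ifnar2, whose kinases Jak1 and Tyk2 pass the signal on to transcription factors, Stat2 and Irf9 among them. These bind the interferon-stimulated response element (ISRE) in the promoters of effector genes. The effectors act against viruses by binding foreign RNA, making the messenger 2-5A that turns on RNase L, tagging proteins with ISG15 or ubiquitin, and blocking replication or release, and in brain several of them mark a subset of microglia seen in aged or diseased tissue.

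The letters of the ISRE core, GAAANNGAAA, were searched on both strands of the RefSeq promoters (build GRCm38.p6, 250 bases before to 50 bases after each start). Of the 39 members, 33 had a promoter in that table, with 37 promoters in all, and 18 of the 37 (48.6%) held the letters against 1131 of all 32851 promoters (3.44%). Oas2, Parp9, Parp14, Mx1, Ifi204 and Ifi27 were named only, with no promoter. For 5 of the members that hold the letters, the 200 bases before the RefSeq start are given 5′ to 3′ on the gene's strand, with every match in capitals (GAAANNGAAA, or TTTCNNTTTC where the match lies on the other strand). Slfn8, Slfn5, Trim30d and Ifit3 are shown as members that were higher in microglia-like nuclei of P301S mice, and Ifit1 as one that was higher in astrocyte-like nuclei.
Slfn8, chr11:83020811-83021010, minus strand: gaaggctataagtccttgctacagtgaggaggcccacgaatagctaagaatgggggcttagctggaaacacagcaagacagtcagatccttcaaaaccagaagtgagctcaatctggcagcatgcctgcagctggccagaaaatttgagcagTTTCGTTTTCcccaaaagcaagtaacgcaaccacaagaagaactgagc
Slfn5, chr11:82951902-82952101, plus strand: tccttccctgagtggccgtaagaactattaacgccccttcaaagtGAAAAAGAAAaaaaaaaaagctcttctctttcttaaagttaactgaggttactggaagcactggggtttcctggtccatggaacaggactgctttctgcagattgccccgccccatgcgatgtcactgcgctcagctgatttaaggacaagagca
Trim30d, chr7:104507850-104508049, minus strand: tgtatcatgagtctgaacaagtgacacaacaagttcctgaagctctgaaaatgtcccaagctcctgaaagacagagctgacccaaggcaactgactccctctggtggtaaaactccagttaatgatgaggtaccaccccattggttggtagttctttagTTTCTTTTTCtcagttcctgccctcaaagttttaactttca
Ifit1, chr19:34640689-34640888, plus strand: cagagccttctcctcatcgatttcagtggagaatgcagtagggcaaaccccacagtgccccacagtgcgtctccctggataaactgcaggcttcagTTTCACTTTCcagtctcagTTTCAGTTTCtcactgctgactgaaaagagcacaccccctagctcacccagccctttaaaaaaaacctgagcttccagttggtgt
Ifit3, chr19:34583329-34583528, plus strand: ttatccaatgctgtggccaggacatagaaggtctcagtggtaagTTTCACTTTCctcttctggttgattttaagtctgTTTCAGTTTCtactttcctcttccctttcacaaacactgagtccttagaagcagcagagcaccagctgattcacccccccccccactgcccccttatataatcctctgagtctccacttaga
Slfn8, Slfn5 and Trim30d held 1 match each, with its first base at -48, -155 and -41 from the start, and Ifit1 and Ifit3 held 2 each, at -104 and -85 and at -156 and -122. Among other members described below, Lgals3bp, Rnf213, Sp100, Slfn2 and Epsti1 held no match in their promoters. RefSeq starts can differ from the GENCODE gene spans given below, and that of Slfn5 lies inside its GENCODE span. Matches were found in 12 of 29 promoters (41.4%) of members that were higher in microglia-like nuclei of P301S mice, below, and in 6 of 8 (75%) of the other members. In the promoters of 25 genes of interferon signalling fixed as a list, 7 of 25 (28%) held the letters.

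After filtering, 204852 nuclei remained, with 5840 to 12572 per library, and a median of 2225 to 8996 unique molecular identifiers (UMIs, each 1 counted RNA molecule) per nucleus. Clusters were named from fixed markers as "X-like" classes, and 8550 nuclei (up to 4447 in 1 library) stayed unnamed. Values are CPM, a gene's share of a class's summed UMIs in a library scaled to a fixed total of 1000000 UMIs, and a class enters a library only with at least 10 nuclei there. Microglia-like nuclei (11274) gave 268120 to 1891704 UMIs per library, so that 0 UMIs allows a level of up to 1.59 to 11.2 CPM by counting error alone, astrocyte-like nuclei (26791) gave 0.608 to 1.86 CPM, and endothelial-like nuclei (962, in 23 libraries) gave 22.1 to 203 CPM. Library pairs shared 3 to 35 cell barcodes. Intervals and these limits cover counting error only.

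The targeted gene did not follow its labels. Mb21d1, the older symbol of Cgas under which the files list it, was at 32.4, 33.8, 34.1, 35.9 and 39.3 CPM in microglia-like nuclei of the 5 libraries labelled Cgas+/+, at 21.9 and 33.2 CPM in those labelled Cgas-/-, and at 26.4, 36.8 and 56.8 CPM (lowest, median and highest of 6) in the libraries labelled P301S Cgas+/+ against 40.7, 52.3 and 58.6 CPM in those labelled P301S Cgas-/-. Libraries labelled Cgas-/- therefore had Mb21d1 levels that overlapped those labelled Cgas+/+, and every genotype below is that of the label. The counts do not show which exons the reads came from, so the transcript level does not test the protein. Gm43049, a predicted gene chosen because earlier results of these data had it differ with the tau label, was at 0 to 0.126 CPM in excitatory neuron-like nuclei of the 9 libraries without P301S and at 3.04 to 20.6 CPM in the 18 P301S libraries, with no overlap.

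Across the classes read in most libraries, the effector genes were highest in microglia-like and endothelial-like nuclei. Among the 9 classes that had at least 10 nuclei in 20 or more libraries, 20 of the 39 members had their highest mean level in microglia-like and 19 in endothelial-like nuclei, as did 17.1% and 14.4% of all genes with a UMI. These means run over all libraries of a class, most of them P301S. The summed level was higher in endothelial-like than in microglia-like nuclei without P301S, and slightly lower with it (values below). The endothelial-like means of Ifit3, Ifit3b, Oasl1 and Cmpk2, among those 19, rest on 22, 12, 17 and 18 UMIs over 23 libraries and lie below that class's lowest limit of 22.1 CPM per library. On a mean of log2(CPM + 1) the counts were 20 and 16, with 2 in astrocyte-like and 1 in progenitor-like nuclei, and with stricter doublet removal 20 and 18, with 1 in progenitor-like nuclei. In fibroblast-like nuclei, which reached 10 in 19 libraries, Ifit2 averaged 34.9 ± 19.7 (SD, n = 19) CPM and Parp12 87.2 ± 33.8 (SD, n = 19) CPM, against 22.6 ± 20.7 (SD, n = 23) and 82.7 ± 36.8 (SD, n = 23) CPM in endothelial-like nuclei. T cell-like nuclei, which reached 10 in P301S libraries alone, and macrophage-like nuclei, which reached 10 in 1 Cgas+/+ and 1 P301S Cgas-/- library (4008 CPM in each), had a higher mean summed level than either class and are described further on.

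Slfn8, a Schlafen gene, averaged 133 ± 55.2 (SD, n = 27) CPM in microglia-like nuclei and 4.34 CPM in the next of these 9 classes, oligodendrocyte progenitor-like nuclei, and was higher in microglia-like than in progenitor-like nuclei in 27 of 27 libraries. In the other immune classes Slfn8 was at 197 ± 129.9 (SD, n = 11) CPM (T cell-like) and at 144 and 172 CPM in the 2 macrophage-like libraries. Epsti1 averaged 255 ± 78.1 (SD, n = 27) CPM in microglia-like and 6.52 CPM in endothelial-like nuclei, in the same order in 23 of 23 libraries that held both. Trim30d, a tripartite-motif gene, averaged 124 CPM in microglia-like and 19.98 CPM in astrocyte-like nuclei (27 of 27). For 13 members the microglia-like level was above the astrocyte-like level in all 27 libraries (10.8% of all genes with a UMI in either class), for 16 it was above the excitatory neuron-like level (14.1%), and for 3 it was above the endothelial-like level in every library with both (5%).

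Sp100, a component of PML nuclear bodies, had the opposite order, with 411 ± 94.3 (SD, n = 23) CPM in endothelial-like and 108 CPM in microglia-like nuclei, and it was higher in endothelial-like nuclei in 23 of 23 libraries. Slfn5 stood at 139.5 ± 60.3 (SD, n = 23) CPM against 22.5 CPM (23 of 23), and Isg15, the ubiquitin-like modifier, at 35.3 ± 28.9 (SD, n = 23) CPM against 1.85 CPM (20 of 23). For Samd9l, a restriction factor of poxviruses, endothelial-like nuclei gave 61.3 CPM and progenitor-like nuclei 8.24 CPM (21 of 23). Xaf1, a binding partner of the apoptosis inhibitor XIAP, was led by endothelial-like nuclei at 67.9 CPM, followed by oligodendrocyte-like nuclei at 45.9 CPM. Trim30a, which dampens Toll-like receptor signalling, was read in both leading classes, at 276 CPM in microglia-like and 143 CPM in endothelial-like nuclei. These orders hold among the 9 classes only. In T cell-like nuclei Sp100 was at 475 to 1087 CPM and Samd9l at 64.4 to 388 CPM over 11 libraries.

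**Figure D1:**
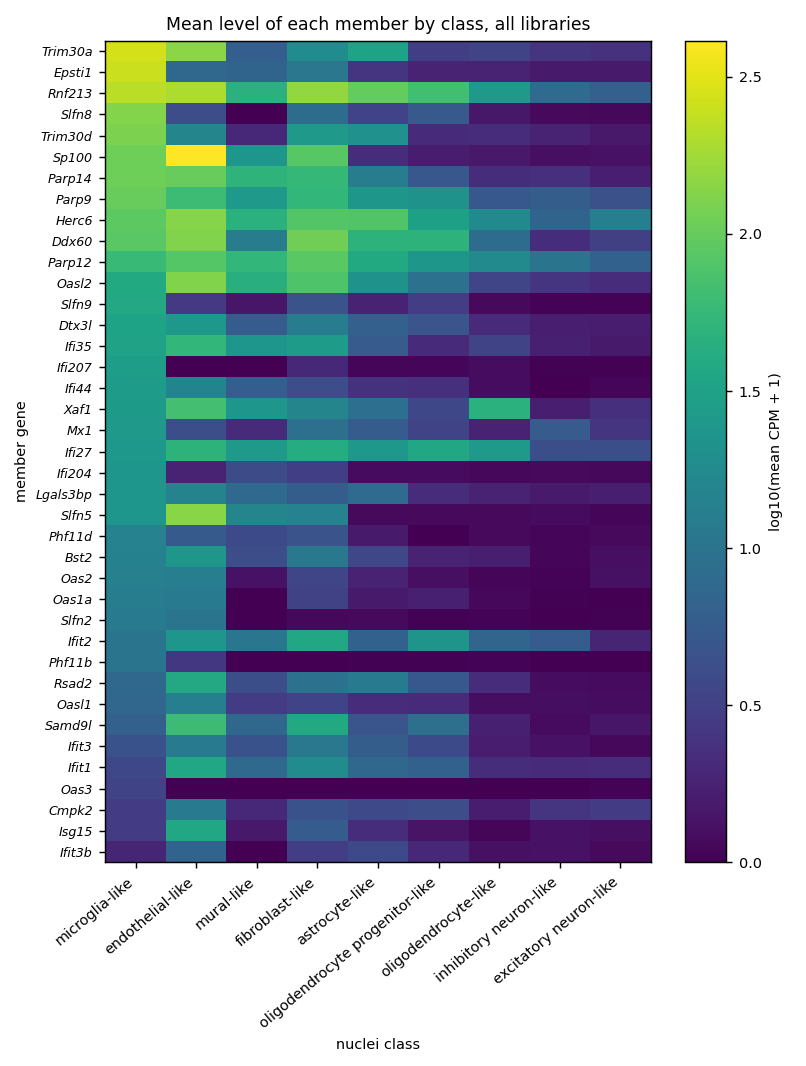
Mean level of each of the 39 members in each class, as log10(mean CPM + 1) by color, over the libraries with at least 10 nuclei of the class, with members as rows in the order of their microglia-like level and 9 classes as columns. The microglia-like column holds the highest mean of 20 members and the fibroblast-like column that of Ifit2 and Parp12, the endothelial-like column leads the others, and the inhibitory and excitatory neuron-like columns are low for most members.

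In microglia-like nuclei the members were higher in P301S mice. Their summed level was 2473 ± 1016 (SD, n = 18) CPM in P301S libraries and 1062 ± 155 (SD, n = 9) CPM in libraries without P301S. By group it was 834, 1028, 1033, 1098 and 1357 CPM in Cgas+/+ mice, 882 and 1186 CPM in Cgas+/- mice and 1036 and 1104 CPM in Cgas-/- mice. It was 1129, 2775 and 4371 CPM (lowest, median and highest of 6) in P301S Cgas+/+ mice, 1131, 1922 and 3502 CPM in P301S Cgas+/- mice and 1467, 2539.6 and 3546 CPM in P301S Cgas-/- mice. Of the 18 P301S libraries, 15 lay above all 9 without P301S, and P301S Cgas+/+ replicate 2 and P301S Cgas+/- replicates 5 and 6 lay within their range. Within P301S Cgas+/- mice the 3 males (1977 to 3502 CPM) and the 3 females (1131 to 1867 CPM) did not overlap, while in the other 2 P301S groups the sexes overlapped.

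**Figure D2:**
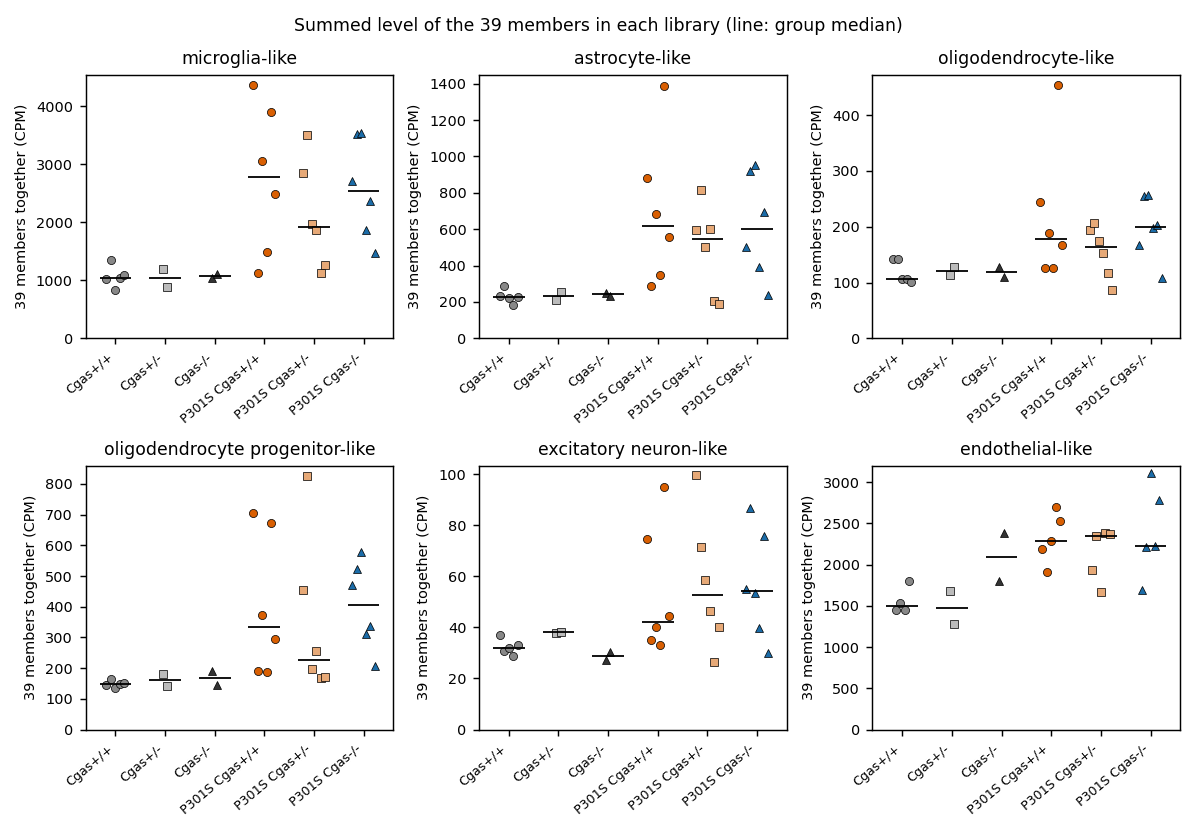
Summed CPM of the 39 members per library (points, 1 per mouse) in 6 classes, by genotype group, with the group median as a line. In microglia-like nuclei 15 of 18 P301S libraries lie above all 9 libraries without P301S, and the 3 P301S genotype groups overlap.

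Gene by gene, P301S was compared with no P301S as the mean of the 3 Cgas genotypes on each side (edgeR quasi-likelihood test with sex as covariate, Benjamini-Hochberg adjustment over all genes). Of the 39 members, 34 passed the filter on low counts, and 31 were higher at an adjusted p under 0.05 with none lower. Among all 9627 genes tested, 7.7% were higher and 4.24% lower. Since a member could pass the filter through the P301S libraries alone, the UMIs pooled over libraries were also compared for all 39, and all 39 had a higher CPM in P301S mice, with a median ratio of 3.93 when members with no UMI without P301S are set at their bound of 3 counts. Among 17634 genes with over 3 UMIs in P301S mice the ratio was above 1 for 47.3%, and its median was 0.979. DESeq2 also called 31 members, with 8.14% of all genes higher. The 31 calls fell to 14 without Cgas+/- replicate 2 and to 20 without Cgas-/- replicate 1, and 14 of the 31 kept their call whichever library was left out. No call is independent evidence that the list responds to interferon, since its genes were chosen with earlier results of these data known.

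Trim30d had the smallest p of the members (chr7:104470014-104507849 on GRCm38). In microglia-like nuclei it was at 55.9, 64.7, 67.6, 72.1 and 103 CPM in Cgas+/+ mice, at 78.3 and 82.2 CPM in Cgas+/- mice and at 62.3 and 86.1 CPM in Cgas-/- mice. P301S libraries gave 92.3, 173 and 249.9 CPM in P301S Cgas+/+ mice, 86.02, 117 and 192 in P301S Cgas+/- mice and 85.2, 153 and 204 in P301S Cgas-/- mice (lowest, median and highest of 6 each). Above every library without P301S were 4 of 6 P301S Cgas+/+, 4 of 6 P301S Cgas+/- and 5 of 6 P301S Cgas-/- libraries, so the groups overlapped. P301S mice had a log2 fold change of 1.09 ± 0.19 (SE; adjusted p = 0.0015). In Cgas+/+ mice alone the P301S difference of Trim30d was 1.25 ± 0.25 on the log2 scale, and the Cgas differences were -0.17 ± 0.21 and -0.42 ± 0.21 in P301S Cgas-/- and P301S Cgas+/- mice against P301S Cgas+/+ mice.

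Lgals3bp encodes a secreted glycoprotein that binds galectins (chr11:118392751-118402092). Without P301S, the microglia-like level was 0, 2.94, 4.79, 6.01 and 12.3 CPM in Cgas+/+, 3.22 and 7.46 CPM in Cgas+/- and 6.15 and 10.1 CPM in Cgas-/- mice. P301S libraries gave 6.79, 37.03 and 57.9 CPM in P301S Cgas+/+ mice, 10.98, 25.8 and 36.8 in P301S Cgas+/- mice and 17.04, 30.2 and 54.4 in P301S Cgas-/- mice (lowest, median and highest of 6 each). All but 2 of the 18 P301S libraries lay above the highest value without P301S. Over genotypes the log2 fold change was 2.42 ± 0.42 (SE; adjusted p = 0.0015). Within Cgas+/+ mice the P301S difference of Lgals3bp was 2.72 ± 0.57 on the log2 scale, and the Cgas differences were -0.12 ± 0.35 and -0.41 ± 0.36 in P301S Cgas-/- and P301S Cgas+/- mice against P301S Cgas+/+ mice.

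Rnf213 encodes a giant ubiquitin ligase with ATPase modules (chr11:119393100-119487418). In microglia-like nuclei it was at 95.9, 108, 118, 121 and 138 CPM in Cgas+/+ mice, at 69.3 and 89.5 CPM in Cgas+/- mice and at 78.7 and 99.4 CPM in Cgas-/- mice. P301S libraries gave 110.4, 309.8 and 523 CPM in P301S Cgas+/+ mice, 101, 208 and 411 in P301S Cgas+/- mice and 198, 262 and 432 in P301S Cgas-/- mice (lowest, median and highest of 6 each). Every P301S Cgas-/- library lay above all 9 libraries without P301S, as did 5 of 6 P301S Cgas+/+ and 4 of 6 P301S Cgas+/- libraries. P301S mice had a log2 fold change of 1.69 ± 0.30 (SE; adjusted p = 0.00217). In Cgas+/+ mice alone the P301S difference of Rnf213 was 1.49 ± 0.38 on the log2 scale, and the Cgas differences were -0.15 ± 0.33 and -0.50 ± 0.33 in P301S Cgas-/- and P301S Cgas+/- mice against P301S Cgas+/+ mice.

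Slfn5, a nuclear Schlafen gene, lies at chr11:82951349-82964840. Without P301S, the microglia-like level was 0, 0, 2.46, 4.79 and 6.01 CPM in Cgas+/+, 0 and 1.61 CPM in Cgas+/- and 0 and 1.69 CPM in Cgas-/- mice. P301S libraries gave 1.7, 40.3 and 83.9 CPM in P301S Cgas+/+ mice, 3.16, 15.5 and 59.1 in P301S Cgas+/- mice and 10.6, 40.3 and 66.3 in P301S Cgas-/- mice (lowest, median and highest of 6 each). It was near 0 without P301S, and 15 of 18 P301S libraries were above that whole range, the exceptions being 1 P301S Cgas+/+ and 2 P301S Cgas+/- libraries. Over genotypes the log2 fold change was 4.67 ± 0.85 (SE; adjusted p = 0.00254). Within Cgas+/+ mice the P301S difference of Slfn5 was 3.94 ± 0.99 on the log2 scale, and the Cgas differences were -0.25 ± 0.54 and -1.04 ± 0.58 in P301S Cgas-/- and P301S Cgas+/- mice against P301S Cgas+/+ mice.

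Sp100 (chr1:85649988-85709998) encodes a protein of nuclear bodies that represses viral genomes. In microglia-like nuclei it was at 11.98, 16.9, 26.04, 41.2 and 54.1 CPM in Cgas+/+ mice, at 9.67 and 44.8 CPM in Cgas+/- mice and at 18.5 and 26.96 CPM in Cgas-/- mice. P301S libraries gave 35.7, 175 and 285 CPM in P301S Cgas+/+ mice, 21.96, 113 and 222 in P301S Cgas+/- mice and 70.3, 171 and 236 in P301S Cgas-/- mice (lowest, median and highest of 6 each). Above all libraries without P301S were 4 of 6 P301S Cgas+/+, 4 of 6 P301S Cgas+/- and 6 of 6 P301S Cgas-/- libraries. P301S mice had a log2 fold change of 2.73 ± 0.50 (SE; adjusted p = 0.00309). In Cgas+/+ mice alone the P301S difference of Sp100 was 2.61 ± 0.63 on the log2 scale, and the Cgas differences were -0.14 ± 0.46 and -0.65 ± 0.48 in P301S Cgas-/- and P301S Cgas+/- mice against P301S Cgas+/+ mice.

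Slfn2 (chr11:83065112-83070678) is a short Schlafen gene required for quiescence of T cells and monocytes. Without P301S, the microglia-like level was 0, 0, 2.003, 2.4 and 4.92 CPM in Cgas+/+, 0 and 1.61 CPM in Cgas+/- and 3.69 and 5.06 CPM in Cgas-/- mice. P301S libraries gave 1.7, 17.9 and 42.6 CPM in P301S Cgas+/+ mice, 3.16, 7.58 and 15.6 in P301S Cgas+/- mice and 11.5, 17.2 and 26.3 in P301S Cgas-/- mice (lowest, median and highest of 6 each). Within the range of the libraries without P301S fell 1 P301S Cgas+/+ library, 1 P301S Cgas+/- library and no P301S Cgas-/- library. Over genotypes the log2 fold change was 2.73 ± 0.55 (SE; adjusted p = 0.00316). Within Cgas+/+ mice the P301S difference of Slfn2 was 3.21 ± 0.74 on the log2 scale, and the Cgas differences were -0.08 ± 0.40 and -1.10 ± 0.45 in P301S Cgas-/- and P301S Cgas+/- mice against P301S Cgas+/+ mice. For Slfn2 the difference between P301S Cgas+/- and P301S Cgas+/+ mice was the only one among the members under an unadjusted p of 0.05 in these nuclei.

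Mx1 (chr16:97447035-97462907) encodes a dynamin-like GTPase that traps viral nucleoproteins. In microglia-like nuclei it was at 0, 2.003, 2.94, 4.83 and 7.38 CPM in Cgas+/+ mice, at 7.46 and 9.67 CPM in Cgas+/- mice and at 0 and 0 CPM in Cgas-/- mice. P301S libraries gave 0, 54.1 and 87.8 CPM in P301S Cgas+/+ mice, 7.32, 16.9 and 69.01 in P301S Cgas+/- mice and 12.8, 28.7 and 44.5 in P301S Cgas-/- mice (lowest, median and highest of 6 each). Cgas-/- mice had no UMI of it, so its fitted fold change is no measured bound, and 5 of 6 P301S Cgas+/+, 4 of 6 P301S Cgas+/- and 6 of 6 P301S Cgas-/- libraries lay above all libraries without P301S. P301S mice had a log2 fold change of 4.53 ± 0.85 (SE; adjusted p = 0.00316). From pooled UMIs, P301S mice had 39.6 against 3.43 CPM.

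Epsti1 (chr14:77904239-78002657) was among the members of smallest p. Without P301S, the microglia-like level was 129, 172, 188, 208 and 234 CPM in Cgas+/+, 135 and 175 CPM in Cgas+/- and 194 and 209 CPM in Cgas-/- mice. P301S libraries gave 194, 309 and 418 CPM in P301S Cgas+/+ mice, 201, 268 and 350.00 in P301S Cgas+/- mice and 206, 344 and 364 in P301S Cgas-/- mice (lowest, median and highest of 6 each). Above all 9 libraries without P301S were 4 of 6 P301S Cgas+/+, 4 of 6 P301S Cgas+/- and 5 of 6 P301S Cgas-/- libraries, which leaves overlap in each genotype. Over genotypes the log2 fold change was 0.78 ± 0.14 (SE; adjusted p = 0.00185). Within Cgas+/+ mice the P301S difference of Epsti1 was 0.74 ± 0.19 on the log2 scale, and the Cgas differences were -0.02 ± 0.17 and -0.23 ± 0.17 in P301S Cgas-/- and P301S Cgas+/- mice against P301S Cgas+/+ mice.

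**Figure D3:**
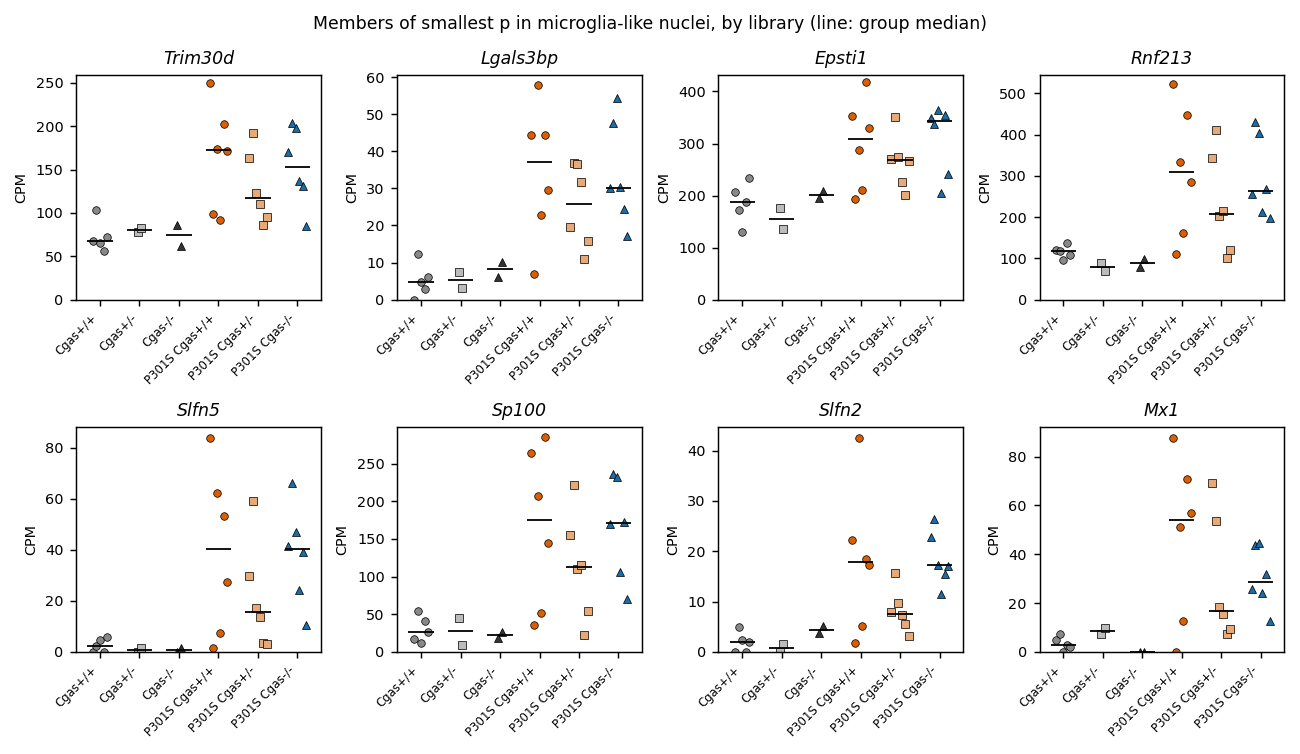
CPM of the members with the smallest p in microglia-like nuclei, 1 point per library, by genotype group, on a linear axis from 0 with the group medians as lines. The P301S points of the 3 Cgas genotypes overlap, and Slfn5, Slfn2 and Mx1 are at or near 0 without P301S.

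The other members are grouped by role, with pooled levels over the 9 libraries without P301S and the 18 with it, and log2 fold changes ± SE where the member rose. Of the 4 IFIT proteins, which bind RNA lacking a host cap or cap methylation, Ifit2 rose (from 2.29 to 14.9 CPM, 2.85 ± 0.72, adjusted p = 0.0128) and Ifit3 rose with a fitted fold change that rests on groups at 0: a single UMI in 9 libraries without P301S against 6.11 CPM with it, a pooled ratio of 26.7 (95% counting interval 4.68 to 1066). Ifit1 and Ifit3b did not pass the filter. Ifit1 stood at 4.53 against 0.915 CPM, and Ifit3b had no UMI without P301S, which makes its pooled level at least 2.3-fold higher in P301S mice against 3 counts over the group.

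Of the 5 members of the oligoadenylate synthetase family, 4 were called. Oasl2 went from 4.57 to 61.04 CPM (3.79 ± 0.80, adjusted p = 0.00584) and Oasl1 went from 1.6 to 9.53 CPM (2.46 ± 0.76, adjusted p = 0.035). Oas2 and Oas1a, which make 2-5A, had groups at 0: Oas2 had a pooled level of 19.9 against 1.6 CPM, and Oas1a had 2 UMIs without P301S, a ratio of 43.8 (95% counting interval 12.02 to 363). Oas3, not tested, had 2 UMIs without P301S and a ratio of 7.76 (2.05 to 65.7). These genes were nearly silent in microglia-like nuclei without P301S. Oasl1 and Oasl2 are related genes. Any reads shared by related members (also Ifit3 and Ifit3b, Trim30a and Trim30d, Slfn8 and Slfn9, Phf11b and Phf11d, Ifi204 and Ifi207) may be split between them or left uncounted. How alike their sequences are was not measured.

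The 3 ADP-ribosyltransferases and Dtx3l, the ubiquitin ligase that pairs with Parp9, all rose: Parp14 from 58.3 to 142 CPM (1.30 ± 0.28), Parp9 from 64.04 to 127 CPM (0.996 ± 0.21), Dtx3l from 19.2 to 38.6 CPM (0.90 ± 0.22) and Parp12 from 40.5 to 68.7 CPM (0.77 ± 0.22), with adjusted p from 0.00521 to 0.0212. Parp9 and Dtx3l overlap each other on the chromosome, and the part of this in their counts was not tested. Among the genes of ISG15 and ubiquitin, Trim30a rose (from 151 to 359 CPM, 1.23 ± 0.26, adjusted p = 0.00523), as did Herc6, the mouse ligase for ISG15 (from 61.8 to 113 CPM, 0.90 ± 0.28, adjusted p = 0.0414). Isg15 itself had 3 UMIs without P301S and was not tested, its pooled ratio being 3.93 (95% counting interval 1.25 to 19.8). Herc6 lost its call without each of 13 libraries, and it was at an adjusted p of 0.0701 without the sex covariate.

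Of the nucleotide enzymes, Rsad2 (viperin, which makes the chain terminator ddhCTP) rose from 1.14 to 10.3 CPM (4.15 ± 1.06, adjusted p = 0.0136), while Cmpk2, a mitochondrial nucleotide kinase next to it in the genome, had no UMI without P301S and was at least 4.79-fold higher with it. Bst2 (tetherin, which holds budding viruses at the membrane) was at 15.5 against 7.55 CPM and did not pass the test (0.92 ± 0.36, adjusted p = 0.0957). The DNA sensors of the PYHIN family had pooled ratios of 23.4 for Ifi204 (37.4 against 1.6 CPM, 4.59 ± 1.05, adjusted p = 0.00879) and 37.2 for Ifi207 (51.1 against 1.37 CPM, with a group at 0). Of the 4 Schlafen members, Slfn8 rose (159 against 92.4 CPM, 0.75 ± 0.23, adjusted p = 0.0345) and Slfn9 did not pass the test (0.84 ± 0.68, adjusted p = 0.49).

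The chromatin members Phf11b (12.7 against 4.12 CPM, 1.76 ± 0.51, adjusted p = 0.0231) and Phf11d (17.4 against 7.32 CPM, 1.31 ± 0.40, adjusted p = 0.0331) rose, as did Ddx60, an RNA helicase (118 against 51.9 CPM, 1.19 ± 0.33, adjusted p = 0.0207), Xaf1 (34.7 against 8.69 CPM, 1.95 ± 0.41, adjusted p = 0.00479), Ifi35 (38.6 against 20.1 CPM, 1.01 ± 0.21, adjusted p = 0.0041) and Ifi44 (42.97 against 0.915 CPM, with groups at 0). Ifi27 was called at a log2 fold change of 0.86 ± 0.27 (adjusted p = 0.0375), but only 2 of 18 P301S libraries were above all 9 without P301S, and it was lost in the additive model (adjusted p = 0.0653). Samd9l was not called (1.41 ± 0.78, adjusted p = 0.261).

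**Figure D4:**
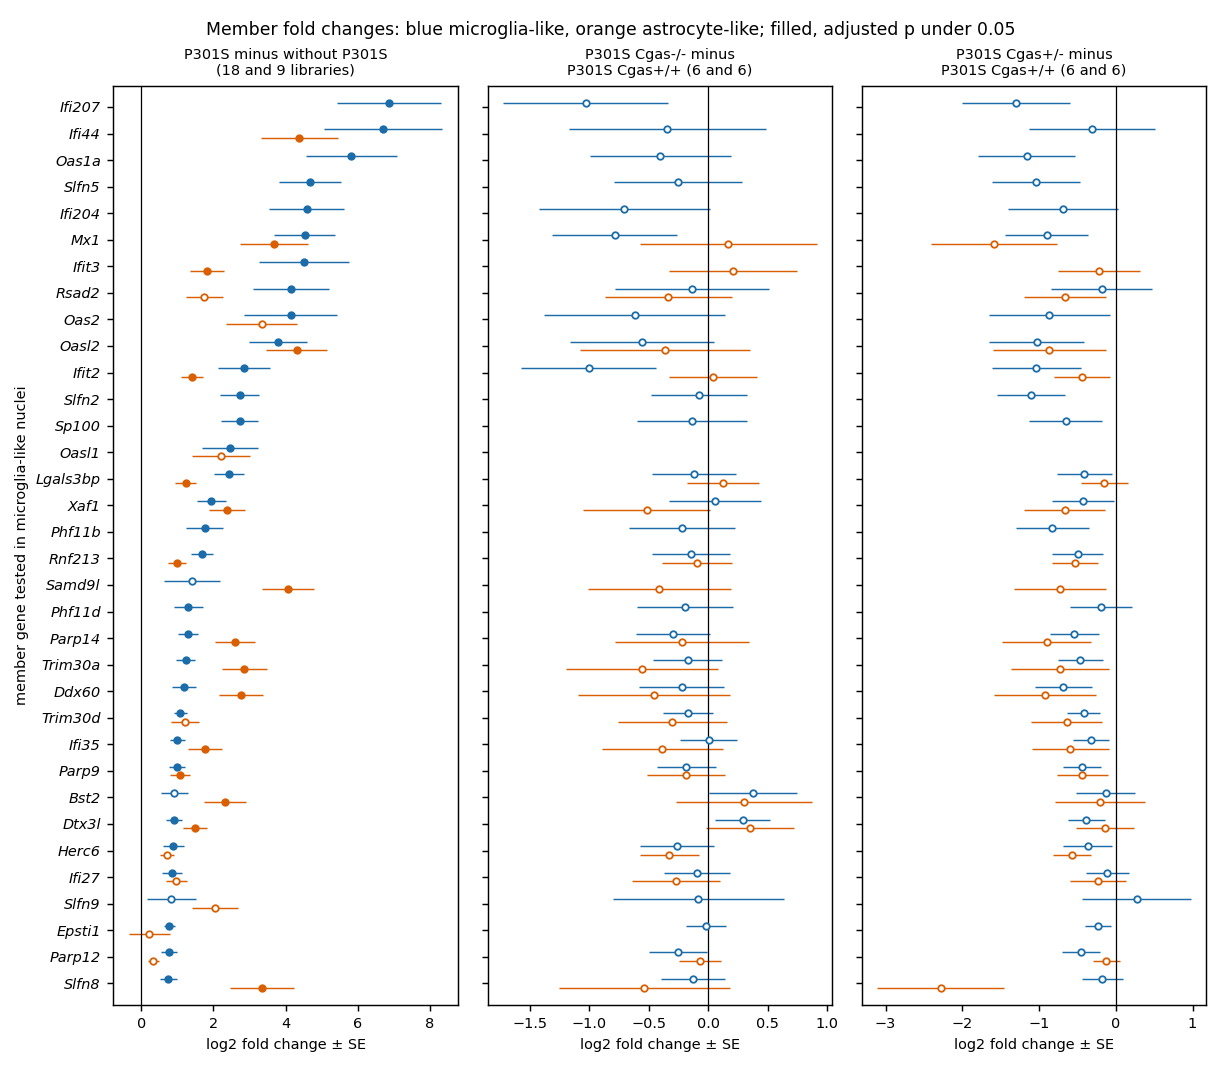
Log2 fold change with its SE as bars in microglia-like (blue) and astrocyte-like (orange) nuclei, for the 34 members tested in microglia-like nuclei, with P301S against no P301S on the left, P301S Cgas-/- against P301S Cgas+/+ in the middle and P301S Cgas+/- against P301S Cgas+/+ on the right. Points are filled where the edgeR adjusted p is under 0.05, which holds for 31 blue and 17 orange points on the left and for none in the other panels.

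Other measures of these nuclei are given beside the members, with and without P301S. The microglia-like class had a median of 1815, 1834 and 1843 UMIs per nucleus in P301S Cgas+/+, P301S Cgas+/- and P301S Cgas-/- libraries (means of the library medians) against 1379, 1314.5 and 1507.75 in the same Cgas genotypes without P301S. The 10 microglial markers summed to 8526 to 13624 CPM with P301S and 12087 to 14383 CPM without, none at 0. The 9 T cell markers summed to 0 to 20.7 CPM with P301S, with 2 of them at 0, and 2.46 to 14.7 CPM without, with 4 at 0. The 8 macrophage markers summed to 94.6 to 282 CPM with P301S, with 3 at 0, and 180.3 to 329.6 CPM without, with 4 at 0. The part of these in the members' levels was not tested.

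The single-genotype comparisons share control samples and are given side by side. For P301S Cgas+/+ against Cgas+/+ mice, 31 members passed the filter and none passed an adjusted p of 0.05 (smallest 0.078), while 29 were higher at an unadjusted p under 0.05 against 10.5% of all genes, and no gene of the 9085 tested was higher at the adjusted threshold (0%). DESeq2 called 20 members and 2.74% of all genes, and edgeR without the low-count filter called 34 of 39, all higher, and 3.03% of all genes higher. The edgeR count was 23 when P301S Cgas+/+ replicate 2, whose summed level lay within the range of Cgas+/+ mice, was left out. It was 3 with replicate 4 of that group left out and 1 with P301S Cgas-/- replicate 3 left out.

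Between P301S Cgas-/- and P301S Cgas+/+ mice no member was called: none of the 31 that passed the filter reached an adjusted p of 0.05 or an unadjusted p of 0.05 by edgeR, which called 0% of all genes lower, and DESeq2 called none. Without the low-count filter edgeR called 1 of 39 members, lower in P301S Cgas-/- mice, and 0.0791% of all genes lower. Fold changes were below 0 for 27 of the 31 against 52.8% of all genes, with a median of -0.18 against -0.01 over all genes. The smallest p was that of Ifit2, at a log2 fold change of -1.005 ± 0.57 (unadjusted p = 0.091 in the edgeR fit), followed by Mx1 and Ifi207. For P301S Cgas+/- mice 30 of 31 fold changes were below 0 against 51.7% of all genes, with a median of -0.45 against -0.01, and none was called by edgeR with the filter or by DESeq2, while edgeR without the low-count filter called 6 of 39, all lower in P301S Cgas+/- mice, and 0.102% of all genes lower. In the interaction, which asks whether the P301S difference depends on deletion, none of 34 members was called or reached an unadjusted p of 0.05, by edgeR, and DESeq2 called none. The SE of the deletion difference was 0.33 for Rnf213 and 0.35 for Lgals3bp on the log2 scale. All members were read in the same mice, so counts of fold changes below 0 are not independent readings, here or in the classes below. P301S Cgas+/- replicates 5 and 6, whose summed levels lay within the range without P301S, enter the fold change of every member.

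Of 25 genes of interferon signalling, 14 passed the filter in microglia-like nuclei and 6 were higher in P301S mice, against 7.7% of all genes, among them the receptor chains Ifnar1 (0.70 ± 0.18), Ifnar2 (0.53 ± 0.16) and Ifngr2 (0.45 ± 0.13, of the interferon gamma receptor), the transcription factor Stat2 (1.39 ± 0.31, adjusted p = 0.00731), and Usp18 (3.45 ± 0.73), an inhibitor of the receptor that also removes ISG15. In astrocyte-like nuclei 6 of 16 rose against 1.75% of all genes, among them the transcription factors Irf9, Irf7 and Stat2 and the inhibitors Socs3 and Usp18, with a log2 fold change of 1.03 ± 0.20 for Stat2. Stat2 was also among 2 of 11 that rose in progenitor-like nuclei (0.24% of all genes). In excitatory neuron-like nuclei 2 of 16 rose, Usp18 among them (1.5% of all genes), and Jak1 fell by 0.25 on the log2 scale.

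In astrocyte-like nuclei the members stood lower than in microglia-like nuclei and 19 of 39 rose in P301S mice, with none lower. Of all genes, 1.75% were higher. The filter let 30 members through, and DESeq2 called 25 of them and 3.76% of all genes. All 37 members with over 3 UMIs in P301S mice had a higher pooled CPM there (median ratio 3.85, share of all genes not given). Members entered this count by their P301S UMIs, so it is no test of a rise. The summed level was 597 ± 314 (SD, n = 18) CPM with P301S and 233 ± 29.1 (SD, n = 9) CPM without, and 14 of 18 P301S libraries were above all 9 without. By genotype it was 287, 619.7 and 1389.8 CPM in P301S Cgas+/+, 189, 548 and 818 CPM in P301S Cgas+/- and 238, 599 and 951 CPM in P301S Cgas-/- mice. The P301S libraries within the range without P301S were P301S Cgas+/+ replicate 2, P301S Cgas+/- replicates 5 and 6 and P301S Cgas-/- replicate 6. The count was 0 when any one of the 4 Cgas+/- and Cgas-/- libraries without P301S was left out, which leaves a lone mouse in that group, assumed to vary like the others. It was 11 without Cgas+/+ replicate 1, P301S Cgas+/- replicate 2, P301S Cgas+/- replicate 3 or P301S Cgas-/- replicate 5, and 10 without replicate 2 of the latter group. It was 12 when P301S Cgas+/+ replicate 1 or Cgas+/+ replicate 5 was left out, and with the software version as covariate (0.486% of all genes higher), and 11 without the low-count filter, which called 0.404% of all genes higher.

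Samd9l had the smallest p of the members in astrocyte-like nuclei. It was at or near 0 without P301S, so it could pass the filter through the P301S libraries alone. In Cgas+/+ mice it was at 0, 0.215, 0.265, 0.34 and 0.442 CPM, with 0 and 0.523 in Cgas+/- and 0.617 and 0.664 in Cgas-/- mice. P301S libraries gave 1.14, 5.61 and 17.8 CPM in P301S Cgas+/+ mice, 0.24, 5.81 and 9.48 in P301S Cgas+/- mice and 2.04, 3.56 and 11.98 in P301S Cgas-/- mice, and 17 of 18 lay above all 9 without P301S. Samd9l rose by a log2 fold change of 4.07 ± 0.71 (adjusted p = 0.0149).

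Oasl2 followed. In Cgas+/+ mice it was at 0.885, 1.06, 3.23, 4.12 and 5.44 CPM, with 0.785 and 2.001 in Cgas+/- and 0.617 and 0.886 in Cgas-/- mice. P301S libraries gave 4.33, 27.6 and 94.7 CPM in P301S Cgas+/+ mice, 0.303, 23.4 and 48.5 in P301S Cgas+/- mice and 5.71, 27.3 and 53.97 in P301S Cgas-/- mice, and 15 of 18 lay above all 9 without P301S. Oasl2 rose by a log2 fold change of 4.31 ± 0.85 (adjusted p = 0.0235).

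Ddx60 encodes a helicase that assists RNA sensors. In Cgas+/+ mice it was at 7.52, 8.48, 12.1, 12.4 and 19.4 CPM, with 8.37 and 11.8 in Cgas+/- and 8.02 and 10.6 in Cgas-/- mice. P301S libraries gave 12.5, 68.4 and 233 CPM in P301S Cgas+/+ mice, 5.45, 48.6 and 127 in P301S Cgas+/- mice and 13.6, 72.9 and 102 in P301S Cgas-/- mice, and 14 of 18 lay above all 9 without P301S. Ddx60 rose by a log2 fold change of 2.76 ± 0.60 (adjusted p = 0.026).

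The others called were Ifit1 (10.1 against 0.659 CPM), Ifit2 (7.23 against 2.82 CPM), Ifit3 and Ifit3b of the IFIT group, Parp14 (16.5 against 2.82 CPM), Parp9 and Dtx3l of the ADP-ribosyltransferases, Trim30a (46.8 against 6.68 CPM) and Rnf213 (119 against 58.97 CPM) of the ubiquitin group, Bst2, Mx1, Slfn8, Xaf1 (11.3 against 1.91 CPM), Ifi35, Ifi44 and Lgals3bp (8.73 against 3.61 CPM), with adjusted p from 0.0235 to 0.0466. Herc6, Parp12 and Ifi27 did not pass the test, with log2 fold changes of 0.72 ± 0.20, 0.34 ± 0.14 and 0.97 ± 0.30. Ifi44 had a group at 0 UMIs. Ifit1 was near 0 without P301S and could also pass the filter through the P301S libraries alone. Of the 31 members called in microglia-like and the 19 called in astrocyte-like nuclei, 15 were shared (48.4% of the first and 78.9% of the second). With 31 of all 39 members called in microglia-like nuclei, 19 members drawn at random would share about as many. Samd9l, Ifit1, Ifit3b and Bst2 were called in the astrocyte-like and not in the microglia-like class. Ifit1 and Ifit3b did not pass the filter in the microglia-like class, and the difference between classes was not tested.

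In P301S Cgas+/+ against Cgas+/+ astrocyte-like nuclei, none of 24 tested members was called (smallest adjusted p 0.217), 24 were higher at an unadjusted p under 0.05 against 6.51% of all genes, and DESeq2 called 13 (1.22% of all genes). At the adjusted threshold edgeR called 0.00769% of all genes higher. For deletion, none of 24 members was called or reached an unadjusted p of 0.05 by edgeR, and DESeq2 called none. Fold changes for deletion were below 0 for 17 of the 24 against 48.8% of all genes. For heterozygosity none was called, 24 of 24 fold changes were below 0 against 47.7% of all genes, with a median of -0.58 against 0.01, and 2 were lower at an unadjusted p under 0.05 against 1.55% of all genes. Slfn8 was -2.28 ± 0.82 in P301S Cgas+/- against P301S Cgas+/+ mice, and Herc6 -0.57 ± 0.25, neither called at the adjusted threshold.

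Microglial RNA in astrocyte-like nuclei was measured from the 10 microglial markers, which summed to 86.5 CPM in P301S and 77.4 CPM in other libraries (0.753% and 0.601% of the microglia-like level). The members stood at 24.2% and 21.9% of their microglia-like level. In oligodendrocyte progenitor-like nuclei the markers were at 0.407% and the members at 15.6% of the microglia-like level in P301S mice, and in excitatory neuron-like nuclei at 0.309% and 2.26%.

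In oligodendrocyte progenitor-like nuclei 12 members passed the filter and 2 rose, against 0.24% of all genes. Of 33 members with over 3 UMIs in P301S mice, 32 had a higher pooled CPM there and 1 a lower (median ratio 2.88). The share of all genes for this pooled count is not given. Members entered it by their P301S UMIs, so it is no test of a rise. Slfn8 was at or near 0 in every group without P301S, so it could pass the filter through the P301S libraries alone. Slfn8 was at 0, 0, 0, 0 and 1.03 CPM in Cgas+/+ mice and at 2.94, 7.3 and 17.9 CPM in P301S Cgas+/+ mice, 0, 4.99 and 13.2 in P301S Cgas+/- mice and 0, 5.98 and 10.1 in P301S Cgas-/- mice, with a log2 fold change of 3.64 ± 0.70 (adjusted p = 0.00705). Rnf213 was at 21.5, 27.4, 28.7, 33.5 and 43.05 CPM in Cgas+/+ mice and at 33.7, 91.2 and 164 CPM in P301S Cgas+/+ mice, 29.1, 55.8 and 179 in P301S Cgas+/- mice and 45.8, 86.4 and 128 in P301S Cgas-/- mice (1.59 ± 0.32, adjusted p = 0.0331). DESeq2 called 7, and 0.543% of all genes. The edgeR count was 9 without the low-count filter (0.508% of all genes), 7 with additive terms for P301S and Cgas genotype (0.627%), and 1 without the sex covariate (0.439%) or with stricter doublet removal (0.21%). The summed level was 385 ± 205 (SD, n = 18) CPM with P301S and 156 ± 19.2 (SD, n = 9) CPM without, with 14 of 18 P301S libraries above all others. The count went to 0 without Cgas-/- replicate 1, to 5 without P301S Cgas+/+ replicate 2 and to 4 without replicate 5, and to 1 without each of P301S Cgas-/- replicates 2 and 5, P301S Cgas+/- replicate 2, P301S Cgas+/+ replicate 1, Cgas+/+ replicate 5, Cgas+/- replicates 1 and 2 and Cgas-/- replicate 2.

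In oligodendrocyte-like nuclei none of 15 tested members was called (edgeR), 10 were higher at an unadjusted p under 0.05 against 7.64% of all genes, and DESeq2 called 2 against 0.817%. At the adjusted threshold edgeR called 0.0617% of all genes higher. The summed level was 190.3 ± 82.5 (SD, n = 18) CPM with P301S and 119.6 ± 15.9 (SD, n = 9) CPM without, with 13 of 18 above all 9 others. Xaf1 stood at 48.3 ± 8.62 (SD, n = 18) CPM with P301S and 41.2 ± 4.88 (SD, n = 9) CPM without.

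Neurons held little of these transcripts, and 7 of 39 members rose in excitatory neuron-like nuclei of P301S mice, against 1.5% of all genes. The summed level was 55.9 ± 22.8 (SD, n = 18) CPM with P301S and 32.7 ± 4.07 (SD, n = 9) CPM without, at a depth of 14171825 to 43201774 UMIs per library. Of the 39, 31 passed the filter, none was lower, and DESeq2 called 13 of them and 3.71% of all genes. Pooled CPM was higher in P301S mice for 34 of the 39 and lower for 5 (median ratio 1.46, share of all genes not given).

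Oasl2 had the smallest p of the members in excitatory neuron-like nuclei. It was near 0 without P301S, so it could pass the filter through the P301S libraries alone. Libraries without P301S gave 0.0277, 0.0579, 0.0682, 0.149 and 0.221 CPM in Cgas+/+, 0.0621 and 0.0794 in Cgas+/- and 0.084 and 0.157 in Cgas-/- mice. P301S libraries gave 0.297, 1.72 and 7.52 CPM in P301S Cgas+/+ mice, 0.0749, 0.856 and 3.17 in P301S Cgas+/- mice and 0.134, 0.761 and 4.03 in P301S Cgas-/- mice. For Oasl2 the log2 fold change was 4.28 ± 0.80 (adjusted p = 0.0109).

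The other calls were Herc6, Rsad2 (2.70 ± 0.66), Slfn8 (2.15 ± 0.54), Ifit1 (2.76 ± 0.70), Rnf213 (1.30 ± 0.34) and Ifit2 (0.89 ± 0.23), at adjusted p of 0.0146 to 0.0441. Only Oasl2 was called in a model with additive terms for P301S and Cgas genotype (0.0504% of all genes higher), and no member was called without Cgas+/- replicate 2, Cgas-/- replicate 1 or Cgas-/- replicate 2, while 11 were without P301S Cgas+/+ replicate 5. The count was 2 without P301S Cgas-/- replicate 2, P301S Cgas+/+ replicate 1 or P301S Cgas+/- replicate 3, 3 without P301S Cgas+/- replicate 1 or P301S Cgas-/- replicate 5, and 4 without Cgas+/+ replicate 1 or Cgas+/- replicate 1, and also 4 without the low-count filter (0.615% of all genes higher). Without the sex covariate Rnf213, Rsad2 and Ifit2 lost the call (adjusted p = 0.129, 0.0574 and 0.107 in edgeR) and Xaf1 gained it, with 1.68% of all genes higher.

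Herc6 had the next smallest p. Libraries without P301S gave 4.61, 6.1, 7.47, 9.12 and 10.7 CPM in Cgas+/+, 6.63 and 7.36 in Cgas+/- and 2.48 and 3.48 in Cgas-/- mice. P301S libraries gave 3.01, 6.73 and 16.7 CPM in P301S Cgas+/+ mice, 7.38, 18.3 and 41.5 in P301S Cgas+/- mice and 5.92, 16.8 and 31.3 in P301S Cgas-/- mice. For Herc6 the log2 fold change was 1.498 ± 0.29 (adjusted p = 0.0146).

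For the Cgas comparisons in excitatory neuron-like nuclei, edgeR called none of the 25 members tested. For deletion 20 of 25 fold changes were below 0 against 50.9% of all genes, with a median of -0.43 against -0.004 over all genes. At an unadjusted p under 0.05, 4 were lower against 7.43% of all genes and 2 higher against 6.23%. For heterozygosity 20 of 25 were below 0 against 51.4% of all genes, with a median of -0.59 against -0.01, and 9 were lower against 6.34% and 2 higher against 5.53% at that threshold. DESeq2 called no member for deletion and Herc6 alone for heterozygosity, with 0.488% of all genes higher. The mean make-up of the class also differed. Dentate granule-like nuclei were 31.5% ± 21.0 (SD, n = 6) of it in P301S Cgas+/+, 19.7% ± 11.8 in P301S Cgas+/- and 14.9% ± 11.2 in P301S Cgas-/- mice. CA1-like nuclei were 21.5% ± 11.7, 9.27% ± 5.17 and 12.3% ± 7.50 in the same order. The part of this in the fold changes was not tested.

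In P301S Cgas+/+ against Cgas+/+ mice Herc6 had a log2 fold change of -0.05 ± 0.38. Against P301S Cgas+/+ mice it was 1.16 ± 0.36 in P301S Cgas-/- (edgeR adjusted p = 0.205; DESeq2 0.0742) and 1.38 ± 0.37 in P301S Cgas+/- mice (adjusted p = 0.191; DESeq2 0.0319), past the threshold by DESeq2 in the latter alone. The interaction was 2.80 ± 0.69 (adjusted p = 0.0614 by edgeR and 0.00135 by DESeq2), and with additive terms the P301S difference of Herc6 was 0.98 (adjusted p = 0.479). The share of cortical-like nuclei among excitatory nuclei, read beside it, was 21.03% ± 8.88 (SD, n = 5) in Cgas+/+, 14.9% ± 8.49 (SD, n = 2) in Cgas+/-, 3.89% ± 4.34 (SD, n = 2) in Cgas-/-, 14.9% ± 14.7 (SD, n = 6) in P301S Cgas+/+, 24.3% ± 4.67 (SD, n = 6) in P301S Cgas+/- and 25.4% ± 8.41 (SD, n = 6) in P301S Cgas-/- mice. Across the 27 libraries r was 0.48 (rho 0.66; 0.40 without the 2 libraries farthest from the median), a description over libraries that share their excitatory nuclei between both measures. Within cortical-like nuclei, which had the highest Herc6 level of the 4 subtypes (14.1 CPM with P301S and 9.65 CPM without), the fold change was 0.05 ± 0.24 for deletion and 0.06 ± 0.24 for heterozygosity. Dentate granule-like, CA1-like, CA3-like and cortical-like nuclei made up 19889, 12667, 3138 and 16617 of the 81966 excitatory neuron-like nuclei. The rest carried no subtype name, and their Herc6 level is not given here. In P301S Cgas+/- mice Herc6 reached 41.5 CPM in the whole class, 18.5 CPM in cortical-like and 20.5 CPM in CA3-like nuclei. The part of the unnamed nuclei in the Herc6 differences was not tested.

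Of the excitatory subtypes, the members' summed level was 33.02 ± 17.8 (SD, n = 18) CPM with P301S and 16.5 ± 3.33 (SD, n = 9) CPM without in dentate granule-like nuclei, 87.9 ± 92.4 (SD, n = 18) and 35.2 ± 5.4 (SD, n = 9) CPM in CA1-like nuclei, and 44.9 ± 11.4 (SD, n = 18) and 38.1 ± 9.97 (SD, n = 9) CPM in cortical-like nuclei. By counting error alone, 0 UMIs of a gene allows 0.264 to 17.8 CPM per library in dentate granule-like nuclei. The limits were 0.257 to 15.3 CPM in CA1-like and 0.224 to 15.9 CPM in cortical-like nuclei. In dentate granule-like nuclei 2 of 39 members were higher (background 0.396% of all genes; DESeq2 called 4 members and 0.958%), Rnf213 (1.55 ± 0.35, adjusted p = 0.0348) and Phf11d (0.428 against 0.0586 CPM, adjusted p = 0.0452, with a group at 0). Without the sex covariate both lost the call (adjusted p = 0.0828 and 0.0875 in edgeR) and Ddx60 and Ifit1 were called, with 0.444% of all genes higher. The edgeR count was 4 with additive terms (0.333% of all genes higher) and 1 without the low-count filter (0.192%), with the software version as covariate (0.167%) or with stricter doublet removal (0.341%). In CA1-like nuclei none of 19 was called by edgeR, though 12 were higher at an unadjusted p under 0.05 and DESeq2 called 4, where the backgrounds were 0.0373% for edgeR, 3.13% unadjusted and 0.0969% for DESeq2, and Oasl2 had the smallest p (6.15 ± 1.26, adjusted p = 0.154, pooled 5.94 against 0.131 CPM). In cortical-like nuclei none of 13 was called, with 1 at an unadjusted p under 0.05, and DESeq2 called 0 (backgrounds 0.0138%, 4.77% and 0.138%). Leaving out 1 library at a time, the dentate granule count was 5 without P301S Cgas+/+ replicate 2, 2 or 3 without each of 5 libraries, and 0 or 1 without each of the other 21.

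In inhibitory neuron-like nuclei none of 13 tested members was called by edgeR and 0 by DESeq2, with 4 higher at an unadjusted p under 0.05 against 4.42% of all genes. Over all genes edgeR called 0.0075% higher and DESeq2 0.165%. The smallest p was that of Ifit1, at 2.05 ± 0.57 (adjusted p = 0.252). The summed level was 57.3 ± 15.4 (SD, n = 18) CPM with P301S and 49.0 ± 9.34 (SD, n = 9) CPM without, and 6 of 18 P301S libraries lay above all others. Cajal-Retzius-like nuclei, tested in no fit, gave 139 ± 39.4 (SD, n = 12) CPM with P301S and 73.5 ± 16.4 (SD, n = 6) CPM without.

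In endothelial-like nuclei the members had high levels with and without P301S, and none was called. The summed level was 1449, 1454, 1535 and 1804 CPM in the 4 Cgas+/+ libraries with at least 10 of these nuclei, 1284 and 1677 CPM in Cgas+/- and 1801 and 2380.4 CPM in Cgas-/- mice. In P301S mice it was 1909.7, 2193, 2282, 2534 and 2695 CPM (P301S Cgas+/+), 1666, 1931, 2352, 2377 and 2385 CPM (P301S Cgas+/-) and 1695, 2216, 2231, 2779 and 3108 CPM (P301S Cgas-/-). The mean was 2290.2 ± 395 (SD, n = 15) with P301S and 1673 ± 339 (SD, n = 8) without, and 5 of 15 P301S libraries lay above all 8 without. Of 10 members that passed the filter none was below an unadjusted p of 0.05, by edgeR or, at an adjusted p of 0.05, by DESeq2, and 0% of 3018 genes were called higher by edgeR and 0% by DESeq2. Between P301S Cgas+/+ and Cgas+/+ mice the fold changes of 8 of 8 members that passed the filter were above 0 against 51.3% of all genes, with a median of 0.66 against 0.01 on the log2 scale. In that comparison 3 were higher at an unadjusted p under 0.05 against 2.22% of all genes, and none was called by edgeR or DESeq2, with 0% of 2300 genes higher by each.

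Sp100 averaged 442 ± 94.7 (SD, n = 15) CPM with P301S and 352 ± 63.05 (SD, n = 8) CPM without. Slfn5 averaged 155 ± 61.5 (SD, n = 15) and 111 ± 49.3 (SD, n = 8) CPM, and Isg15 34.9 ± 30.4 (SD, n = 15) and 36.1 ± 27.6 (SD, n = 8) CPM. Samd9l was at 63.9 and 56.6 CPM. Of these 4, Sp100 and Slfn5 passed the filter and neither was called. The smallest p was that of Parp14, with a log2 fold change of 0.62 ± 0.32 (unadjusted p = 0.062 in the edgeR fit).

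Mural-like nuclei had a summed level of 520.1 ± 264 (SD, n = 16) CPM with P301S and 321 ± 84.3 (SD, n = 8) CPM without (8 of 16 above all others), and the 1 member tested, Parp14, had a log2 fold change of 1.29 ± 0.52 (adjusted p = 0.661, unadjusted p = 0.017 by edgeR, background 0.0343%, and 0.0343% by DESeq2). Fibroblast-like nuclei gave 1122 ± 495 (SD, n = 14) CPM with P301S and 779 ± 217 (SD, n = 5) CPM without, and choroid plexus-like nuclei 313 ± 75.6 (SD, n = 11) and 366 ± 29.7 (SD, n = 4) CPM, with no test.

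T cell-like nuclei (314) reached 10 only in 11 libraries, all of them P301S, where the summed level was 4584 ± 1228 (SD, n = 11) CPM. Pooled over all libraries, Epsti1 was at 947 CPM with P301S and 657 CPM without and Rnf213 at 456 CPM with P301S and 386 CPM without in these nuclei, on 285021 and 25886 UMIs. In macrophage-like nuclei (117) Epsti1 was at 637 CPM with P301S and 539 CPM without and Ddx60 at 348 CPM with P301S and 576 CPM without. With few nuclei and no replicate in these pools there was no test.

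Within the 18 P301S libraries the summed levels of different classes varied together. The log2 summed level in microglia-like nuclei had a Pearson r of 0.93 (rho 0.91, n = 18, 0.91 without the 2 farthest libraries) with that in astrocyte-like nuclei, 0.94 (rho 0.93, n = 18, 0.94 without the 2 farthest libraries) with progenitor-like, 0.86 (rho 0.89, n = 18, 0.86 without the 2 farthest libraries) with oligodendrocyte-like and 0.80 (rho 0.75, n = 18, 0.73 without the 2 farthest libraries) with excitatory neuron-like nuclei. With endothelial-like nuclei r was -0.03 (rho -0.14, n = 15, -0.16 without the 2 farthest libraries). The endothelial-like sums rest on 14755 to 135831 UMIs per library. P301S Cgas+/- replicate 6, among the lowest P301S libraries in microglia-like nuclei, did not enter. The part of counting error in this r was not tested. The classes of a library share a mouse, a droplet run and free RNA, which is what these points have in common, and no p is given.

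**Figure D5:**
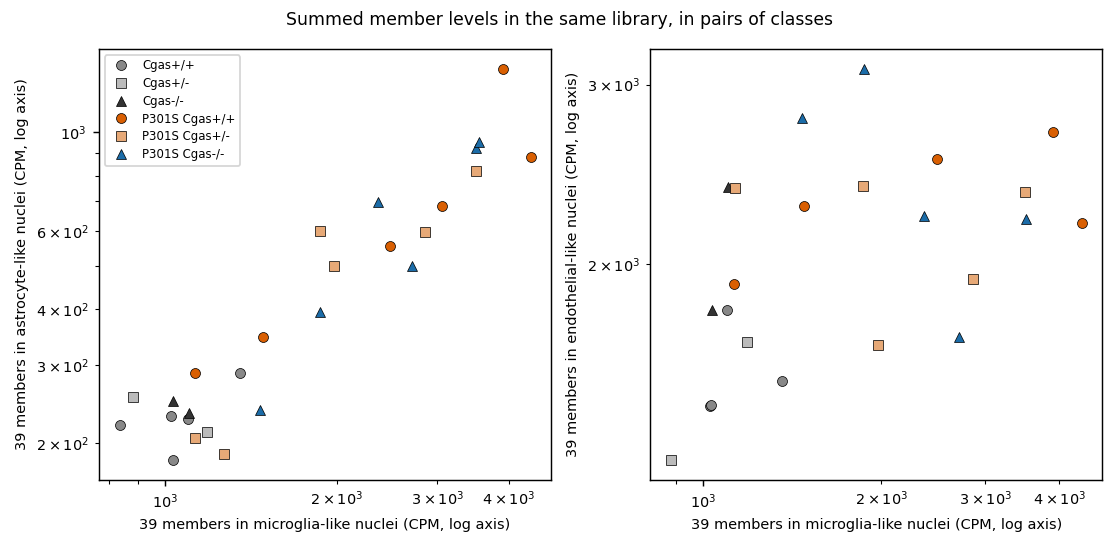
Summed CPM of the 39 members in astrocyte-like (left) and endothelial-like (right) nuclei against the microglia-like level of the same library, both axes on a log scale, 1 point per library with its genotype group by color and shape. The P301S points rise together on the left (r = 0.93) and not on the right (r = -0.03). Points on the right rest on 14755 to 135831 endothelial-like UMIs per library, and the part of counting error in that r was not tested.

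Per nucleus, the comparison was made after each nucleus was thinned to 1000 UMIs, leaving out shallower ones (131 of the microglia-like nuclei in Cgas+/+ mice, and 111, 65 and 98 in the 3 P301S groups, below). The share of microglia-like nuclei with UMIs of at least 2 members was 24.1% ± 6.28 (SD, n = 5) in Cgas+/+ mice, 49.7% ± 17.5 (SD, n = 6) in P301S Cgas+/+, 42.03% ± 13.6 (SD, n = 6) in P301S Cgas+/- and 51.4% ± 13.2 (SD, n = 6) in P301S Cgas-/- mice, and unthinned it was 34.4% ± 7.77 (SD, n = 5), 68.01% ± 19.3 (SD, n = 6), 63.2% ± 17.2 (SD, n = 6) and 72.1% ± 15.7 (SD, n = 6). In astrocyte-like nuclei the thinned share was 2.1% ± 0.86 (SD, n = 5), 10.2% ± 6.98 (SD, n = 6), 7.12% ± 4.56 (SD, n = 6) and 8.24% ± 4.4 (SD, n = 6), and in excitatory neuron-like nuclei 0.0734% ± 0.0347 (SD, n = 5), 0.40% ± 0.445 (SD, n = 6), 0.277% ± 0.27 (SD, n = 6) and 0.188% ± 0.179 (SD, n = 6). A UMI of a member in a nucleus can be free RNA, and shares are not shares of expressing cells.

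Rnf213 was the member called in most classes, 5 of 11 (the dentate granule-like class being part of the excitatory one), followed by Slfn8 in 4 and Ifit2 and Oasl2 in 3. Cmpk2, tested in 6 classes, and Isg15 and Slfn9, tested in 2 each, were called in none, and Oas3 passed the filter in 0 classes.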

How the data were processed

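Nuclei from frozen hippocampi were sorted for DAPI and sequenced with 10x 3′ chemistry (version 3). The authors deposited UMI counts per gene and nucleus, made with Cell Ranger against mm10 with introns counted, and the labels name version 3.1.0, while the file headers give 3.0.2 for 12 libraries (all male, 2 per group) and 3.1.0 for 15. Version was tried as a covariate. The study tested nuclei with MAST and did not use the groups of 2 mice. Here nuclei outside 200 to 4000 genes or above 5% of UMIs from mitochondrial genes were left out, 16429 doublets were removed (0.8% per 1000 barcodes), and nuclei were clustered without the members (scanpy 1.11.5, 2000 variable genes, 30 components, Leiden resolution 1) and named from fixed markers. The counts deposited were summed per library and class, expressed as CPM, and tested with edgeR 4.0.16 (quasi-likelihood, TMM, filterByExpr, sex as covariate) in R 4.3.3, with DESeq2 1.42.0 as an alternative. Single-genotype contrasts used the 23 libraries of the 4 larger groups, and the P301S contrast over genotypes used all 27. The code was tested on simulated counts. Named genes were, per class, the members past an adjusted p of 0.05 (the 10 of smallest p), or the 3 of smallest p, and the 10 of highest mean CPM. The members, the signalling list and the rules were chosen with earlier results of these data known. The p-values measure the spread between libraries of a group. Not every gene of the signalling list is reported here by name.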

Additional observations from a re-analysis of the deposited data

Results flagged for a closer look

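In 7 of 108 groups of 4 to 10 libraries a single library stood apart from the others of its group, where chance flags about 1 in 20. For the summed members these were P301S Cgas+/+ replicate 5 in oligodendrocyte-like nuclei (455 CPM), P301S Cgas+/- replicate 2 in mural-like nuclei (1204 CPM), P301S Cgas+/- replicate 1 in dentate granule-like nuclei (70.4 CPM) and P301S Cgas-/- replicate 2 in CA1-like nuclei (409 CPM). For single members they were Samd9l in astrocyte-like nuclei of P301S Cgas+/+ replicate 5 (17.8 CPM), Oasl2 in excitatory neuron-like nuclei of the same library (7.52 CPM) and Herc6 in excitatory neuron-like nuclei of P301S Cgas+/+ replicate 1 (16.7 CPM). All 7 were the highest value of their group. In dentate granule-like nuclei of P301S Cgas+/- replicate 1 a single UMI is 4.14 CPM, so its 70.4 CPM rests on few UMIs.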

How the results depend on the processing

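No paired analysis was possible because the labels tie no mouse to a mouse of another group. The replicate numbers used here only name libraries within a group. Of 62 results that answer a comparison, 37 kept their side of every threshold or stayed within the tolerance under each alternative run. With DESeq2, the number of members called rose to 20 (P301S against none in Cgas+/+ mice, microglia-like), 13 (astrocyte-like), 3 (progenitor-like), 4 (excitatory neuron-like), 3 (dentate granule-like) and 1 (CA1-like). For P301S over genotypes it rose to 2 (oligodendrocyte-like), 7 (progenitor-like), 13 (excitatory neuron-like), 4 (dentate granule-like) and 4 (CA1-like), and in excitatory neuron-like nuclei it was 1 for heterozygosity and 1 for the interaction. Without the low-count filter, microglia-like nuclei gave 34 for P301S in Cgas+/+ mice, 1 for deletion and 6 for heterozygosity, progenitor-like nuclei 5 for P301S in Cgas+/+ mice and 9 over genotypes, and over genotypes the counts were 11 (astrocyte-like), 4 (excitatory neuron-like) and 1 (dentate granule-like). With the software version as covariate they were 12 (astrocyte-like) and 1 (dentate granule-like), without the sex covariate 1 (progenitor-like), and with stricter doublet removal, chosen after seeing the data, 1 (progenitor-like) and 1 (dentate granule-like). With additive terms, also chosen after seeing the data, they were 7 (progenitor-like), 1 (excitatory neuron-like), 4 (dentate granule-like) and 1 (CA1-like). Thinning to 2000 UMIs in place of 1000 gave shares of nuclei with 2 members of 59.5% in microglia-like and 5.93% in astrocyte-like nuclei of Cgas+/+ mice, and with P301S 73.1% and 22.3% (Cgas+/+), 64.7% and 16.2% (Cgas+/-) and 80.2% and 16.9% (Cgas-/-). Nuclei under 2000 UMIs were left out. In microglia-like nuclei of Cgas+/+ mice no library median exceeded 1505 UMIs, so most nuclei there were left out. The microglia-like shares of Cgas+/+ and P301S Cgas+/+ mice lay closer together than at 1000 UMIs. Without the sex covariate the calls lost were 3 of 31 (microglia-like: Herc6, Oasl1 and Phf11d), 1 of 19 (astrocyte-like), 1 of 2 (progenitor-like), 3 of 7 (excitatory neuron-like) and 2 of 2 (dentate granule-like), and with the software version as covariate 7 of 19 (astrocyte-like), 2 of 7 (excitatory neuron-like) and 1 of 2 (dentate granule-like). The cause of these moves was not tested. In progenitor-like, excitatory neuron-like, dentate granule-like and CA1-like nuclei edgeR called no member for P301S in Cgas+/+ mice. For that comparison and these classes, the counts of the alternatives are given without a share of all genes.

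Leaving out 1 library at a time, the counts for P301S over genotypes ranged from 14 to 31 (microglia-like), 0 to 25 (astrocyte-like), 0 to 5 (progenitor-like), 0 to 11 (excitatory neuron-like), 0 to 5 (dentate granule-like) and 0 to 1 (CA1-like), and for P301S in Cgas+/+ mice from 0 to 23 (microglia-like), 0 to 3 (astrocyte-like) and 0 to 1 (dentate granule-like). No share of all genes is given beside these ranges or beside the counts above with 1 library left out. They therefore do not show whether a loss or gain of calls was particular to the members. The 61 member calls of the report over genotypes kept their direction in each of 2046 alternatives run, of which 367 lost the call. Of 137 fold changes of uncalled members that were followed here (the 3 of smallest p where a class and comparison had no call), 8 turned direction. Leaving out 1 library at a time, these log2 fold changes ranged, for deletion, from -0.45 to 0.020 (Herc6, astrocyte-like), -1.53 to 0.33 (Ddx60, oligodendrocyte-like) and -1.32 to 0.60 (Ddx60, CA1-like), and for heterozygosity from -1.41 to 0.16 (Oasl2, progenitor-like), -0.43 to 0.012 (Ddx60, endothelial-like), -1.83 to 0.43 (Rnf213, CA1-like), -1.58 to 0.57 (Oasl2, CA1-like) and -1.36 to 0.66 (Ddx60, CA1-like). The values above 0 came without P301S Cgas+/+ replicate 5, and for endothelial-like nuclei without P301S Cgas+/+ replicate 6. In endothelial-like nuclei 0 UMIs in the shallowest library allows up to 203 CPM.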

Other observations

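Classes that entered no test had these summed levels of the members. Committed oligodendrocyte precursor-like nuclei were at 514 ± 325 (SD, n = 13) CPM with P301S and 84.8 ± 57.9 (SD, n = 4) CPM without. By genotype they were at 782 ± 299.5 (SD, n = 4) CPM in P301S Cgas+/+, 501 ± 332 (SD, n = 4) CPM in P301S Cgas+/- and 309 ± 206 (SD, n = 5) CPM in P301S Cgas-/- mice. The libraries with enough of these 359 nuclei differed between genotypes. P301S Cgas+/+ replicates 2 and 4 and P301S Cgas+/- replicates 5 and 6 did not enter, nor did P301S Cgas-/- replicate 1. The first 4 named were the P301S libraries not above all without P301S in progenitor-like nuclei. A gene without a UMI in a library of this class can be at up to 23.7 to 72.0 CPM by counting error alone. The order of the genotypes was not tested. Ependymal-like nuclei were at 594 ± 398 (SD, n = 11) CPM with P301S and 229.6 ± 49.5 (SD, n = 7) CPM without. CA3-like nuclei were at 91.5 ± 83.7 (SD, n = 13) CPM with P301S and 36.1 ± 12.5 (SD, n = 9) CPM without, and striatal projection neuron-like nuclei at 47.9 ± 24.7 (SD, n = 16) and 38.2 ± 16.6 (SD, n = 5) CPM.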
